A study of Mus musculus with 2 samples.

Results

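Ttn, Mypn, Myom1, Mlip, Fhod3, Dmd and Sgcd are genes best known from striated muscle, and their RNA and chromatin accessibility were described here in nuclei of mouse bone marrow stroma. They were the 7 of 32293 genes in the deposited matrix that carried these names, and all 7 were measured. Ttn, Mypn, Myom1, Mlip and Fhod3 are sarcomere genes or genes linked to it, and Dmd and Sgcd belong to the dystrophin complex. The genes were chosen by their RNA levels and accessibility in these same nuclei, so every level and ratio below is a description without a test. At postnatal day 21, marrow was taken from femurs of Prrx1-cre; R26R(tdTomato/+) animals, in which a limb mesenchyme promoter drives Cre and Cre switches on a red fluorescent reporter. Male and female animals were pooled, soft tissue, the distal growth plate and the periosteum were removed from the femurs, and tdTomato+ marrow cells were sorted. About 15000 nuclei were loaded for 10x Multiome, which reads RNA and open chromatin in the same nucleus. There was 1 library per assay, 1 genotype and 1 age, so no replicate error exists, and all intervals below are 95% intervals that cover counting error only.

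The sarcomere is the repeating contractile unit of striated muscle, in which actin filaments anchored at Z-discs slide past myosin filaments held at the M-band. Titin, from Ttn, spans from Z-disc to M-band, myopalladin, from Mypn, sits at the Z-disc, and myomesin 1, from Myom1, crosslinks myosin filaments at the M-band. Mlip encodes a lamin-interacting protein of muscle, and Fhod3 encodes a formin that assembles actin filaments in heart sarcomeres. Dystrophin, from Dmd, ties the actin cytoskeleton to a glycoprotein complex in the plasma membrane, and delta-sarcoglycan, from Sgcd, is a subunit of that complex. In bone, osteoblasts lay down the collagen matrix and osteocytes are former osteoblasts buried in it, while reticular cells of the marrow produce Cxcl12 and mural cells wrap blood vessels as pericytes or vascular smooth muscle.

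The library held 35460453 unique molecules (UMIs) of RNA and 191398837 ATAC counts over 728634 barcodes, and 4663 barcodes had at least 500 UMIs and 1000 ATAC counts. Of these, 1427 had at most 10% mitochondrial UMIs, and 1411 remained after removal of the 16 with the highest doublet scores, with a median of 1544 UMIs. The other 3236 barcodes (69.4%) were over that limit. After the same doublet step, 3152 of them, with a median of 23.6% mitochondrial UMIs, served as a second set of nuclei that shares no barcode with the first. Both sets come from the same library, so the second is not a replicate. A nucleus was placed in a class when UMIs of that class's marker genes stood at least 1.5-fold over background, which left 479 of the 1411 nuclei (33.9%) gated. The classes were osteoblast-like (51 nuclei), osteocyte-like (21), chondrocyte-like (9), mural-like (29), reticular-like (177), macrophage or osteoclast-like (20) and other blood or rare classes. A level in CPM is the number of UMIs of the gene in 1000000 UMIs of the class. The genes that set the gates were accordingly high, which is no separate check of the classes: Col1a1, the main bone collagen, was at 94179 CPM in osteoblast-like nuclei, Dmp1, an osteocyte matrix protein, at 6183 CPM in osteocyte-like nuclei, Rgs5, a mural gene, at 2221 CPM in mural-like nuclei and Cxcl12 at 3317 CPM in reticular-like nuclei. Free RNA was read from 62603 barcodes with 100 to 400 UMIs. The tdTomato+ sort did not leave stroma alone: 65 nuclei passed the erythroid gate, 40 the granulocyte gate and 32 the B-lymphoid gate.

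Accessible stretches near or within the members carried much of what follows, so 5 of them, in Mlip, Myom1, Sgcd and Dmd, are shown first, as read from GRCm38.p6 (mm10) on the plus strand. Each is the central window of a peak without annotated exon sequence, and capitals mark the rarest of the searched motifs that it contains. The Mlip stretch lies at a start site inside the gene, shared by the transcripts Mlip-205, Mlip-209, Mlip-210 and Mlip-213, and its capitals mark E-boxes (CANNTG).
Mlip inner start, chr9:77252135-77252426: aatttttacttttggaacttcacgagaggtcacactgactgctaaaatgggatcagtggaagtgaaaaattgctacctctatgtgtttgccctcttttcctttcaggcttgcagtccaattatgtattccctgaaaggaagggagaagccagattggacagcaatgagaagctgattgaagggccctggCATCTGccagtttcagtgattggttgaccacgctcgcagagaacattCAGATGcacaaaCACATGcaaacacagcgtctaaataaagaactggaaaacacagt
The next pair is from Myom1. The first is an intron that was open in bone and chondrocyte-like nuclei and in others named below, with a MEF2 motif in capitals. The second is the start site of Myom1-201, Myom1-202, Myom1-203 and Myom1-205, with coding transcripts among them. Its capitals mark a CArG box, the serum response factor motif of many muscle promoters.
Myom1 intron, chr17:71102763-71103062: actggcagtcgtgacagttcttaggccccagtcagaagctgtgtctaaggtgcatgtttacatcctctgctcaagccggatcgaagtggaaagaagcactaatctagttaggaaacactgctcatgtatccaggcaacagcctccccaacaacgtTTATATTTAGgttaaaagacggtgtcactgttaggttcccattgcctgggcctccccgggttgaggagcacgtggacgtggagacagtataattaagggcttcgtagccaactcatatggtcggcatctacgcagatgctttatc
Myom1 start, chr17:71019433-71019520: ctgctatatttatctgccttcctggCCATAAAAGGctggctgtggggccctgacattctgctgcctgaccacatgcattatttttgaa
The last pair lies in introns of the dystrophin complex genes: a Sgcd stretch that was open in bone nuclei, with GAGGAA, a PU.1 motif, in capitals, and a Dmd stretch that was open in reticular-like nuclei, with CCCNNGGG, an EBF motif, in capitals.
Sgcd intron, chr11:46973394-46973693: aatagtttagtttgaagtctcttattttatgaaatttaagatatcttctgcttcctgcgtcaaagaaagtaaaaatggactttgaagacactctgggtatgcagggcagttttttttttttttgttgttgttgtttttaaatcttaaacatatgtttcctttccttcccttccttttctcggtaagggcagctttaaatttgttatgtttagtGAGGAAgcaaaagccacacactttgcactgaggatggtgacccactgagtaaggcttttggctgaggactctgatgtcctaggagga
Dmd intron, chrX:83674963-83675262: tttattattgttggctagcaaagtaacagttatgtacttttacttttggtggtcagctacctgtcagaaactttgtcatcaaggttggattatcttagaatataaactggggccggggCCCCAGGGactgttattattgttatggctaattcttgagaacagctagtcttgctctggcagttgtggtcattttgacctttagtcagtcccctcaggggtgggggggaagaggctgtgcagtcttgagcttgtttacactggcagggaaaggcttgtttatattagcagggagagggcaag
Searched on both strands, the E-box occurred in 79.5% of the central 300-base windows of 203493 peaks, PU.1 in 30.8%, EBF in 11.4%, MEF2 in 4.77% and the CArG box in 1.60%. The MEF2 match overlaps a TATA motif, TATAAA, on the other strand, present in 14.8% of windows. A match is a description of the letters and does not show that a factor binds.

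The osteoblast lineage carried Mlip and Fhod3. Osteoblast-like nuclei held 65 Mlip UMIs and 216 Fhod3 UMIs, against 2 and 15 in the more numerous reticular-like nuclei, and both genes were also found in osteocyte-like nuclei. In chondrocyte-like nuclei, which held more UMIs per nucleus than the osteoblast-like ones, both genes were below the level of free RNA in either set. Mypn and Ttn were not detected in any of the osteoblast-like or osteocyte-like nuclei of either set, and Dmd was found there at 1.66 to 6.50 CPM.

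Mlip reached 108 CPM (95% interval 83.3 to 138) in osteoblast-like nuclei and 65.0 CPM (31.2 to 120) in osteocyte-like nuclei. In reticular-like nuclei it was at 4.29 CPM (0.519 to 15.5) and in free RNA at 15.4 CPM. The second set had 100.2 CPM from 151 UMIs in osteoblast-like nuclei, 85.8 CPM from 50 UMIs in osteocyte-like nuclei and 9.43 CPM from 2 UMIs in reticular-like nuclei. The intervals of both bone classes stood apart from that of the reticular class in each set, while the 2 bone classes overlapped each other. Mlip UMIs were spread over many nuclei: 24 of 51 osteoblast-like nuclei (47.1%, 32.9 to 61.5) had at least 1, and the richest nucleus held 6. By contrast 2 of 177 reticular-like nuclei (1.13%) and 0 of 9 chondrocyte-like nuclei had 1, at median depths of 10385 UMIs (osteoblast-like), 2142 (reticular-like) and 20839 (chondrocyte-like). With every nucleus thinned to 500 UMIs, 1 osteoblast-like and 0 reticular-like nuclei still had a Mlip UMI, too few to compare shares at equal depth. Osteoblast-like nuclei with Mlip had a median of 18016 UMIs and those without it 2894.

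Osteoblast-like nuclei had Fhod3 at 359 CPM (313 to 410), osteocyte-like nuclei at 149.5 CPM (94.8 to 224) and reticular-like nuclei at 32.1 CPM (18.0 to 53.0), with 18.1 CPM in free RNA. The second set gave 313, 180 and 37.7 CPM in the same order, from 471, 105 and 8 UMIs. The 3 classes kept this order in both sets, and their intervals did not overlap. Fhod3 was found in 34 of 51 osteoblast-like nuclei (66.7%), with at most 36 UMIs in 1 nucleus, and in 14 of 177 reticular-like nuclei (7.91%), and at 500 UMIs per nucleus in 6 (11.8%) and 4 (2.26%). Mural-like nuclei had Fhod3 at 97.6 CPM (50.5 to 171), and a few nuclei carrying periosteal fibroblast markers had 117 CPM from 10 UMIs.

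Over reticular-like nuclei, the log2 ratio in osteoblast-like nuclei was 4.34 for Mlip (20.3-fold) and 3.44 for Fhod3 (10.8-fold). For Sgcd it was -3.45. These 3 members were the ones with at least 20 UMIs over both classes, and 2 were at least 2-fold higher in osteoblast-like nuclei. Of all 5722 genes with that many UMIs, 6.87% were at least 2-fold higher, and their median log2 ratio was -0.87, so the members are read against a background shifted below 0. Col1a1 was at 94179 CPM in osteoblast-like and 8115 CPM in reticular-like nuclei, and its part in this shift was not tested. In osteocyte-like nuclei, 2 members had enough UMIs: Fhod3, at a log2 ratio of 2.20 over reticular-like nuclei, and Sgcd, with 0 UMIs against 291. So 1 of 2 was at least 2-fold higher, beside 8.50% of 4516 genes. Log2 ratios over reticular-like nuclei in the second set were 3.09 (Mlip) and 2.96 (Fhod3) for osteoblast-like nuclei and 2.88 and 2.18 for osteocyte-like nuclei.

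**Figure D1:**
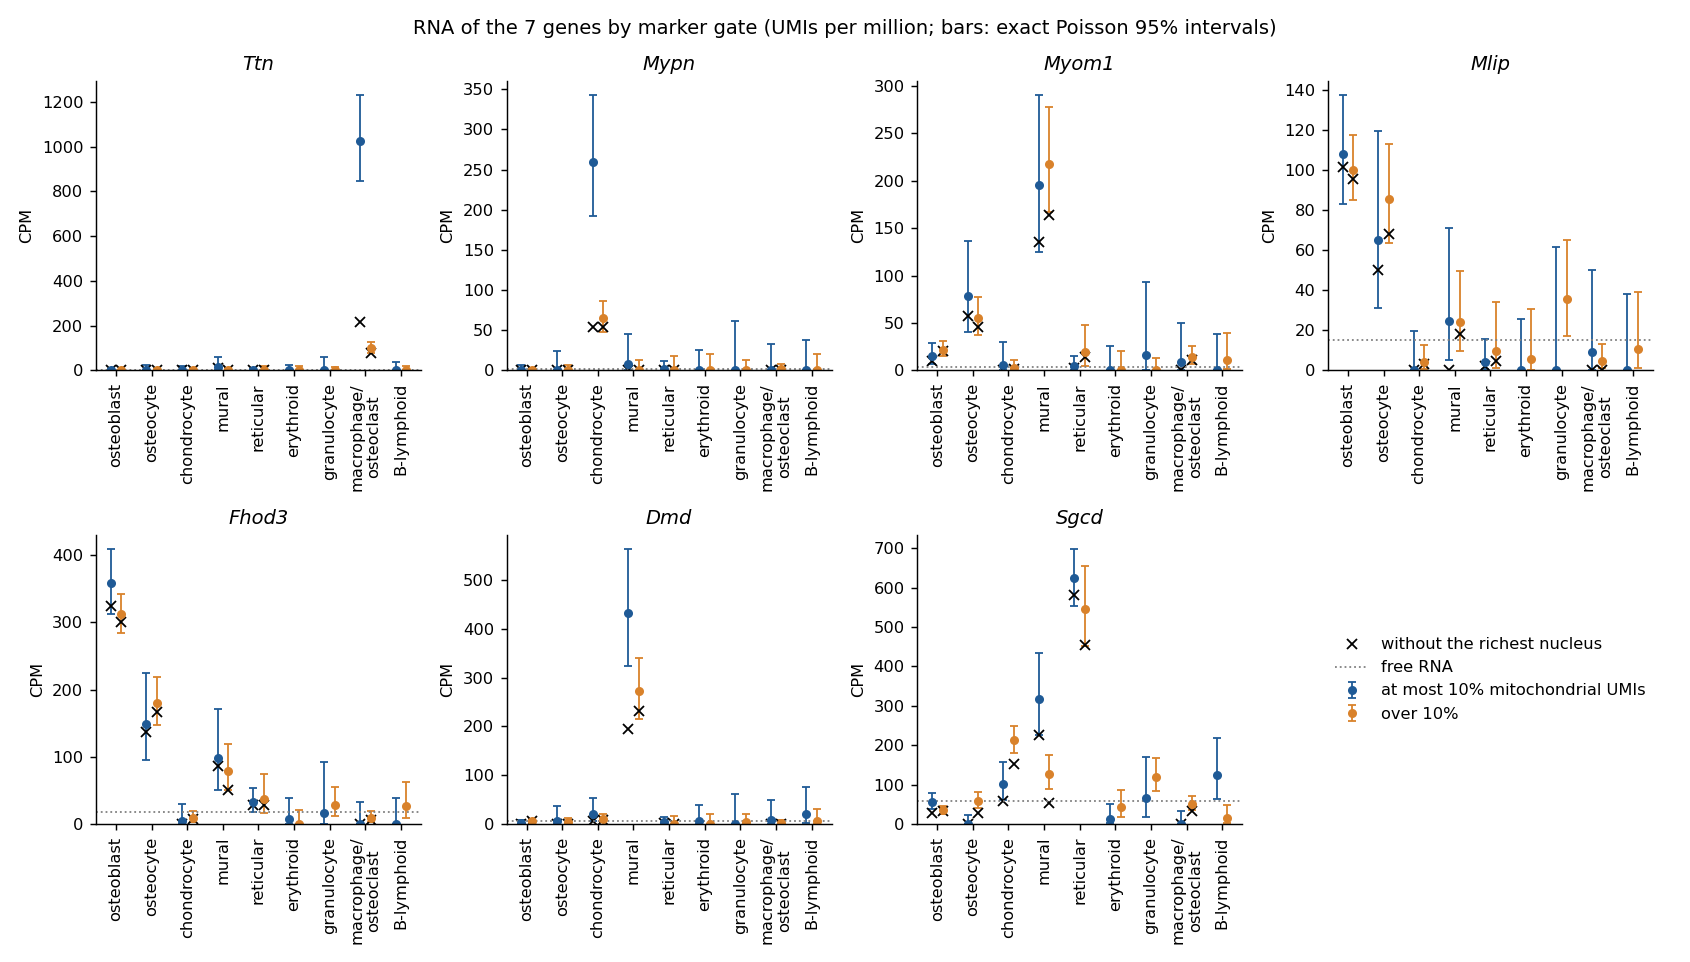
RNA of the 7 genes in 9 marker-gated classes, in CPM (linear axes from 0, scaled per gene). Blue points are nuclei with at most 10% mitochondrial UMIs, orange points the second set over that limit, bars are exact Poisson 95% intervals, black crosses show the level without the nucleus richest in the gene, and the dotted line is free RNA. Mlip and Fhod3 peak in osteoblast-like nuclei, Myom1 and Dmd in mural-like, Sgcd in reticular-like, Mypn in chondrocyte-like and Ttn in macrophage or osteoclast-like nuclei, where the crosses show that 1 nucleus carries much of the Ttn and Mypn of the first set.

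Mlip and Fhod3 often met in the same nucleus. Of the 24 osteoblast-like nuclei with Mlip, 21 also had Fhod3, and Fhod3 was in 34 of all 51. Of the second set 60 of 67 Mlip-positive nuclei had Fhod3, and 118 of all 151 did. Mlip-positive nuclei were the deeper ones, and at 500 UMIs per nucleus 0 nuclei of the first set and 1 of the second held both, so the part of depth in this overlap was not tested. Across 9 gated classes the Pearson correlation of log2(CPM + 1) between Mlip and Fhod3 was 0.72. The genes most like Mlip over these classes were Ptprs, Pcolce and Rapgef4 (r from 0.894 to 0.927), and those most like Fhod3 were Mrc2, Col5a2 and Col5a1 (r from 0.937 to 0.945), among 2971 genes. Pcolce enhances the processing of procollagen, and Col5a1 and Col5a2 encode fibrillar collagen chains. The points of these correlations are classes of 1 library, so they carry no p.

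Chromatin of the same pair was more accessible in bone than in reticular-like nuclei. In peaks over the gene and 3 kb upstream, Mlip had 88.8 ATAC CPM, that is cut sites in 1000000 cut sites of the class (72.5 to 108), in osteoblast-like and osteocyte-like nuclei together and 6.69 (4.17 to 10.2) in reticular-like nuclei, a log2 ratio of 3.72. Fhod3 had 397 (362 to 435) against 131 (119 to 144), a log2 ratio of 1.60. The second set had ratios of 3.47 and 1.39. Among the 6 members with at least 50 counts, these 2 were at least 1.5-fold more accessible in bone nuclei, beside 16.7% of 18384 genes, whose median log2 ratio was 0.02. Myom1 stood at 0.57, Sgcd at 0.53, Mypn at -0.55 and Dmd at -2.50. Chondrocyte-like nuclei, with 0 Mlip UMIs, had 61.8 ATAC CPM over Mlip (36.9 to 97.1) and 40.5 in the second set, and 0 and 16 counts at the start site described next. The 10 nuclei with periosteal fibroblast markers, here called periosteal fibroblast nuclei, held 1 Mlip UMI. The periosteum had been removed from the femurs, so the name rests on the markers alone. These nuclei had 127 ATAC CPM over Mlip (86.7 to 180) and 341 over Fhod3 (272 to 422), with intervals that overlapped those of bone nuclei, and 64.4 and 325 in the second set.

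Single peaks are described next, and some differed more between bone and reticular-like nuclei than the sums over whole genes. The inner Mlip start and the Fhod3 intron had the largest ratio among their gene's peaks with at least 50 counts. A larger difference than over the whole gene follows in part from that choice. The peak at the inner Mlip start site, whose sequence is given above, had 31.3 CPM (22.0 to 43.3) in bone nuclei, from 58 counts in osteoblast-like and 15 in osteocyte-like nuclei, and 0.311 (0.00788 to 1.73) from 2 counts in reticular-like nuclei. Nuclei of the second set had 315 counts in bone and 3 in reticular-like nuclei, and the log2 ratios of both sets were 6.34 and 4.93. The peak at the start of the 7 transcripts that begin near the upstream end of the gene, Mlip-201 among them, had 20 counts in bone against 1 in reticular-like nuclei, and 160 against 2 in the second set. Of 5 Mlip start sites 4 had a peak, and the other 2 of these had few counts: 6 in bone and 0 in reticular-like nuclei at the start of Mlip-207, and 1 and 9 at that of Mlip-202. Periosteal fibroblast nuclei had 2 counts at the inner start and 8 at the upstream one (16.2 CPM, 4.40 to 41.4). Of 18 peaks in Mlip, 1 had at least 50 counts over both groups, and it was the inner start site. The intron peak of Fhod3 had 23.2 CPM in bone nuclei (54 counts) and 0.311 in reticular-like nuclei (2 counts), and 24.2 against 1.63 in the second set. The Fhod3 start site was open in both, at 43.3 (32.2 to 57.1) and 25.5 (20.3 to 31.7) CPM, and at 39.9 and 17.9 CPM in the second set. Of 72 Fhod3 peaks, 8 had at least 50 counts, of which 5 were at least 2-fold higher and 1 at least 2-fold lower in bone nuclei, beside 10.8% of 38541 peaks at least 2-fold higher.

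Myom1 was divided between osteocyte-like and mural-like nuclei. Mural-like nuclei had it at 195 CPM (125 to 291), osteocyte-like nuclei at 78.0 CPM (40.3 to 136), osteoblast-like nuclei at 14.9 CPM (6.83 to 28.4) and reticular-like nuclei at 4.29 CPM (0.519 to 15.5). The second set gave 217, 54.9, 21.9 and 18.9 CPM in the same order, from 63, 32, 33 and 4 UMIs. The osteocyte-like interval lay above the osteoblast-like one in both sets, and the log2 ratio of osteocyte-like over osteoblast-like nuclei was 2.36 and 1.33. The intervals of osteoblast-like and reticular-like nuclei overlapped. Of the 4 members with enough UMIs in this comparison, Myom1 was the one at least 2-fold higher in osteocyte-like nuclei, beside 16.3% of 3611 genes, and Mlip (-0.67) and Fhod3 (-1.23) were lower. The first-set count is small: 12 osteocyte-like UMIs lay in 5 nuclei with at most 4 in 1 nucleus, and without that nucleus and without the richest osteoblast-like nucleus the levels were 57.2 and 10.2 CPM, from fewer UMIs than the minimum of 20. The gene most like Myom1 over the classes was Peak1 (r = 0.894), and Myom1 correlated with Mlip at 0.69 and with Fhod3 at 0.66.

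The accessible sites of Myom1 differed by class. The start site of its coding transcripts, whose CArG box is shown above, had 9 counts in osteocyte-like nuclei (15.5 CPM, 4.65 to 37.8), 6 in mural-like and 0 in reticular-like nuclei. It had, in the second set, 4.73 CPM in osteocyte-like, 7.25 in mural-like, 3.78 in osteoblast-like and 1.09 in reticular-like nuclei. The intron peak with the MEF2 motif was open in osteoblast-like (32.0 CPM, 21.3 to 46.2) and osteocyte-like nuclei (31.0, 14.2 to 58.9) and lower in reticular-like nuclei (2.49, 1.08 to 4.91). The second set gave 25.6, 28.4 and 2.45. It was not a site of bone nuclei alone, since chondrocyte-like nuclei had 43.4 CPM (23.1 to 74.2) and periosteal fibroblast nuclei 30.3, and 10.6 and 19.3 in the second set. Macrophage or osteoclast-like nuclei had 14.5 CPM (5.30 to 31.5) and mural-like nuclei 8.76, and 15.8 and 10.0 in the second set. The intervals of this intron in osteoblast-like nuclei, where Myom1 RNA was low, and osteocyte-like nuclei overlapped. Of 24 Myom1 peaks, 4 had at least 50 counts over bone and reticular-like nuclei. This intron had the largest ratio among them, and its difference follows in part from that choice. It was the 1 at least 2-fold higher in bone nuclei, and 2 were at least 2-fold lower. Of all peaks with enough counts, 10.8% were higher and 35.8% lower. Another peak, within 1 kb of the start of Myom1-204, was open in macrophage or osteoclast-like nuclei at 21.7 CPM (9.91 to 41.2) and at 21.9 in the second set, with 1 and 4 counts in bone nuclei and 0 and 2 in reticular-like nuclei. Myom1 RNA in the macrophage or osteoclast class was 8.99 CPM from 1 UMI and 13.7 CPM from 9 UMIs. The most upstream Myom1 peak is shared with the start of Myl12a, a myosin light chain gene on the opposite strand, and it was open in all of these classes, at 28.4 to 124 CPM.

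**Figure D2:**
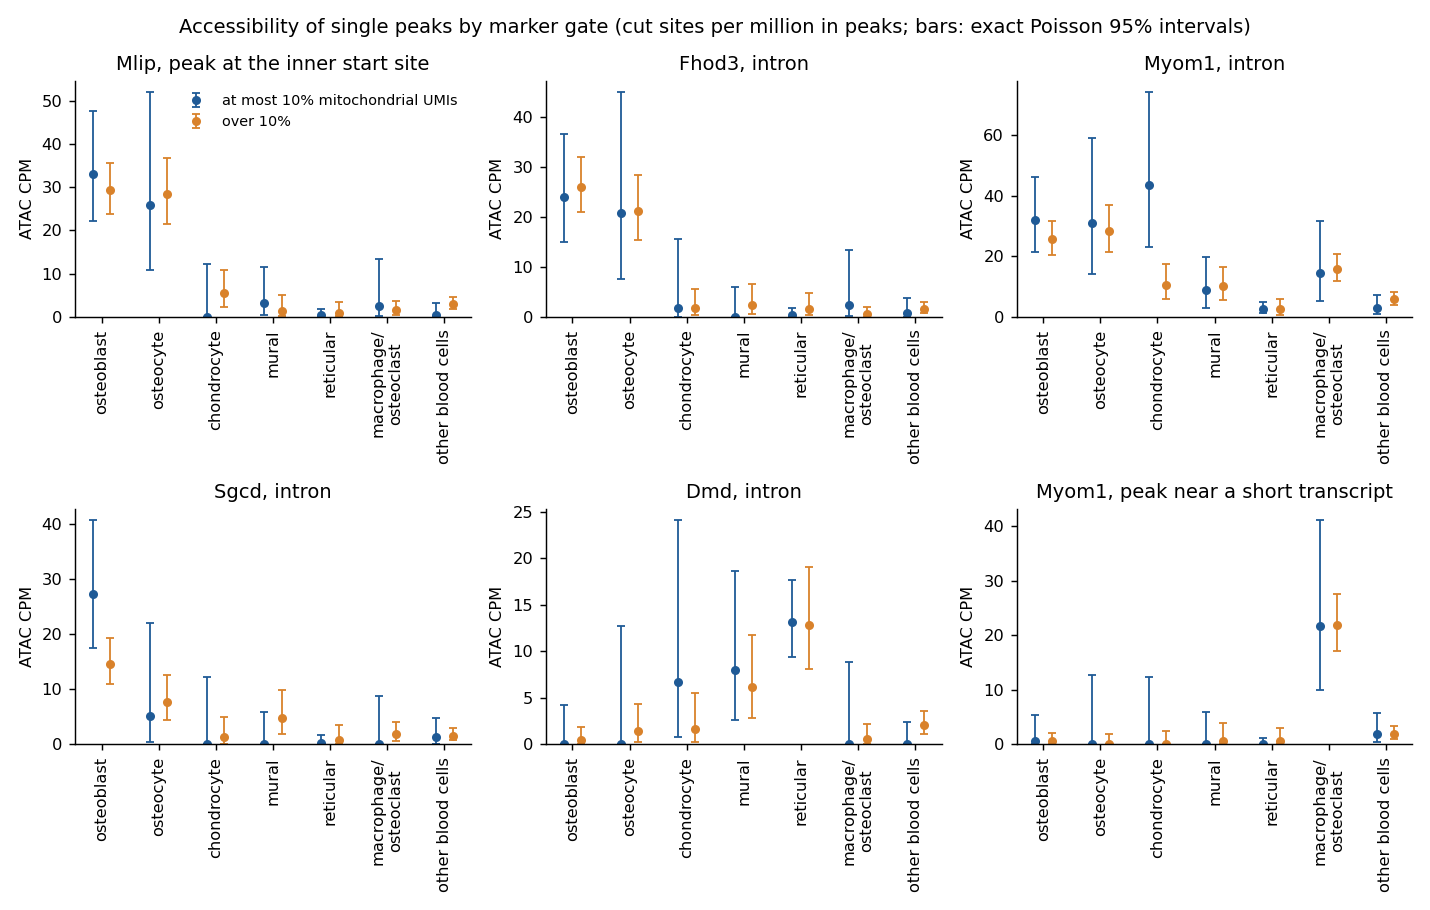
Accessibility of 6 peaks in the members by class, in cut sites in 1000000 cut sites of the class (CPM, linear axes from 0), for nuclei with at most 10% mitochondrial UMIs (blue) and over that limit (orange); bars are exact Poisson 95% intervals. The peaks, apart from the Myom1 one near a short transcript, were picked by their ratio of bone over reticular-like nuclei. Each had the largest such ratio among its gene's peaks with at least 50 counts, but Mlip and Dmd had only 1 such peak. The Dmd peak was lower in bone nuclei, at a log2 ratio of -5.94. In blue, the Mlip, Fhod3, Myom1 and Sgcd peaks lie between 24.0 and 33.1 in osteoblast-like nuclei and between 0.311 and 2.49 in reticular-like nuclei, the Dmd intron is open in reticular-like nuclei at 13.1, and the Myom1 peak near a short transcript is open in the macrophage or osteoclast class at 21.7.

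Dmd marked mural-like nuclei. They held 53 of its UMIs, or 431 CPM (323 to 564), against 1.66 CPM (1 UMI) in osteoblast-like, 6.50 CPM (1 UMI) in osteocyte-like and 4.29 CPM (2 UMIs) in reticular-like nuclei. The level of free RNA was 6.94 CPM, so the bone and reticular levels were not above it. Mural-like nuclei of the second set had 273 CPM (216 to 340) from 79 UMIs and reticular-like nuclei had 0 UMIs, which makes Dmd at least 19.3-fold higher there. The nucleus richest in Dmd held 30 of the 53 UMIs, and without it the mural-like level was 195 CPM (124 to 293), from 23 UMIs of which the next nucleus held 20. Over reticular-like nuclei 4 members had enough UMIs in mural-like nuclei and 3 were at least 2-fold higher: Dmd (log2 ratio 6.34), Myom1 (5.22) and Fhod3 (1.61), beside 9.26% of 4610 genes. With Leiden clusters in place of gates Fhod3 turned to -2.36. Sgcd stood at -0.96.

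Within the mural-like nuclei, Dmd and Myom1 went with the contractile genes of smooth muscle. The gate used pericyte and general mural markers, and 6 of its 29 nuclei held at least 3 UMIs of Acta2, Myh11 and Tagln, which encode smooth muscle actin, smooth muscle myosin and transgelin. These 6 nuclei had 52 of the 53 Dmd UMIs (1034 CPM, 772 to 1355) and 23 of the 24 Myom1 UMIs (457 CPM, 290 to 686). The other 23 nuclei had 13.8 CPM of each gene (0.349 to 76.8). Over the mitochondrial limit, Dmd was at 587.5 CPM in 20 such nuclei and 142 CPM in the other 64, and Myom1 at 517 and 92.8 CPM. Only 4 of the 6 nuclei had any Dmd, and 2 of them held 30 and 20 of its UMIs, so the first-set values rest on those. Sgcd was at 159 CPM (68.7 to 313) in the 6 nuclei and 427 CPM (290 to 606) in the 23, with overlapping intervals. Its second-set values were 11.8 and 176 CPM, and 22 of the 36 UMIs behind the latter lay in 1 nucleus. The mural markers of the gate went different ways. The potassium channel subunit gene Abcc9 was lower in the smooth muscle part, at 119 against 689 CPM. Rgs5 was higher there, at 3459 against 1364 CPM, and at 4700 against 3005 CPM in the second set. Notch3 had 1093 and 758 CPM with overlapping intervals, and 1340 and 767 CPM, with intervals apart, in the second set. Kcnj8 had 1 and 2 UMIs, and 1 and 0 in the second set. Fhod3 was at 79.5 and 110 CPM in the first set, with overlapping intervals, and at 11.8 and 107.5 CPM in the second. All 4 Fhod3 UMIs of the first-set smooth muscle part lay in 1 nucleus of 30913 UMIs. That nucleus therefore weighs heavily in every first-set CPM of this part. Nuclei with at least 3 smooth muscle UMIs were deeper, with medians of 4772 against 1790 UMIs, which the CPM take into account and the split itself does not. This split was made after the levels were seen. Myom1 and Dmd were both present in 3 of the 5 mural-like nuclei with Dmd, and in 15 of 24 in the second set.

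**Figure D3:**
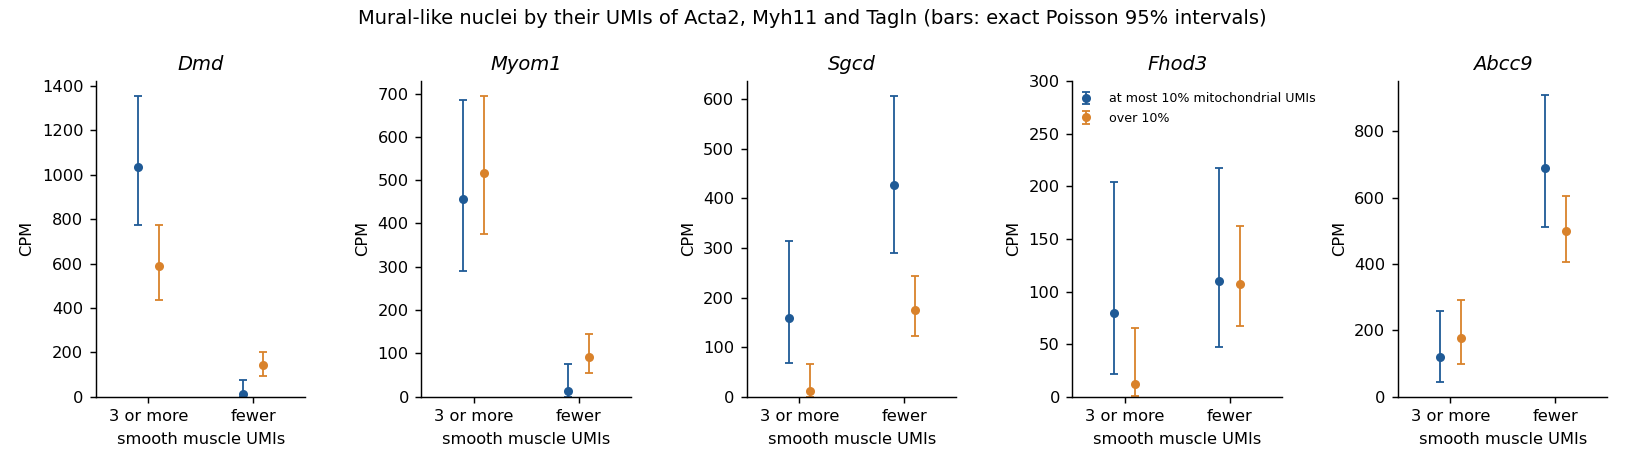
Level of Dmd, Myom1, Sgcd, Fhod3 and the mural marker Abcc9 (CPM, linear axes from 0) in mural-like nuclei with at least 3 UMIs of Acta2, Myh11 and Tagln (6 nuclei, 20 in the second set) and with fewer (23 and 64). Blue is at most 10% mitochondrial UMIs, orange over 10%, and bars are exact Poisson 95% intervals. Dmd falls from 1034 to 13.8 CPM and Myom1 from 457 to 13.8 CPM between the parts in blue, and Abcc9 is higher in the second part.

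Accessibility summed over Dmd did not set mural-like apart from reticular-like nuclei as its RNA did. The mural-like sums cover all 29 nuclei of the class, while 6 of them held 52 of the Dmd UMIs. Over the whole gene, mural-like nuclei had 25.5 ATAC CPM (14.6 to 41.4), reticular-like nuclei 20.5 (15.9 to 26.1) and osteoblast-like nuclei 3.43 (0.707 to 10.0). The intervals of reticular-like nuclei, with 2 Dmd UMIs, and mural-like nuclei, with 53, overlapped, and so they did in the second set (24.7 and 26.6). The intron peak whose sequence is shown above held 84 of the 132 reticular-like counts (13.1 CPM, 9.42 to 17.7) and had 0 counts in bone nuclei, which allows up to 3.17 CPM. These values were 12.8 and 0.827 CPM in the second set. Of 8 Dmd peaks this was the 1 with at least 50 counts over bone and reticular-like nuclei. It passed that minimum through its reticular-like counts, so the first-set difference follows in part from that choice. Of the 9 start sites of Dmd that lie over 1 kb apart, 1 had a peak within 1 kb: the start of short transcripts near the downstream end of the gene, Dmd-201 and Dmd-202 among them, at 10.7 CPM (6.05 to 17.5) in mural-like and 2.99 (1.04 to 6.72) in reticular-like nuclei of the second set. In the first set both had few counts, 4 and 17.

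Sgcd was highest in reticular-like nuclei and in nuclei with periosteal fibroblast markers. Reticular-like nuclei had 291 UMIs, or 623.5 CPM (554 to 699.5), mural-like nuclei had 317 CPM (226 to 434), chondrocyte-like nuclei 100.7 CPM (60.6 to 157) and osteoblast-like nuclei 56.5 CPM (39.1 to 78.9). Osteocyte-like nuclei had 0 Sgcd UMIs, at least 32.0-fold lower than in reticular-like nuclei, while the second set had 58.3 CPM from 34 osteocyte-like UMIs, 18 of them in 1 nucleus, and 28.7 CPM without it. The osteoblast-like level was 28.1 CPM without 1 nucleus of 18 UMIs, and the chondrocyte-like level 59.0 CPM without its richest nucleus (152 CPM in the second set). Free RNA held Sgcd at 57.8 CPM, and the intervals of both bone classes reached or lay under that level. Reticular-like nuclei of the second set had 547 CPM, chondrocyte-like 212 CPM, mural-like 128 CPM (54.1 CPM without the richest nucleus) and osteoblast-like 35.2 CPM. Nuclei with periosteal fibroblast markers, a class of 10 and 27 nuclei, had 445 and 718 CPM, and 255 and 518 CPM without the richest nucleus of each. Sgcd was present in 102 of 177 reticular-like nuclei (57.6%) and in 9 of 51 osteoblast-like nuclei (17.6%), although the latter were deeper. With 500 UMIs per nucleus, 44 and 3 still had it. The genes most like Sgcd were Gpc6, Arhgap6 and Hmgcll1 (r from 0.925 to 0.958), all highest in reticular-like nuclei.

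Sgcd chromatin was open in bone nuclei although its RNA was low there. Bone nuclei had 193 ATAC CPM over the gene (169 to 220) and reticular-like nuclei 134 (122 to 147), and in the second set the order turned, with 172 and 198. The intron peak with the sequence shown above had the largest ratio of bone over reticular-like nuclei among Sgcd peaks with at least 50 counts. It held 51 counts in bone nuclei (21.9 CPM, 14.2 to 32.2) against 2 in reticular-like nuclei (0.311), and 132 against 3 in the second set. Osteoblast-like nuclei had 27.4 CPM (17.6 to 40.8) and osteocyte-like nuclei 5.17 (0.372 to 22.1) at this peak, and 14.7 (10.9 to 19.4) and 7.71 (4.36 to 12.6) in the second set, with overlapping intervals in both. Another intron peak was open in both, at 36.0 and 19.3 CPM, and the peak at the start of Sgcd-201 at 12.4 and 10.7. Of 62 Sgcd peaks, 6 had at least 50 counts, with 1 at least 2-fold higher and 2 at least 2-fold lower in bone nuclei, beside 10.8% of all peaks higher and 35.8% lower.

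Mypn was found in chondrocyte-like nuclei. The 9 nuclei of this class held 49 Mypn UMIs (260 CPM, 192 to 343), but 41 were in 1 nucleus of 42060 UMIs, and the level without it was 54.5 CPM (23.5 to 107). The second set held 45 UMIs in 15 of 53 chondrocyte-like nuclei (65.0 CPM, 47.4 to 86.9), with at most 9 in 1 nucleus and 54.5 CPM without that nucleus. Reticular-like nuclei had 1 and 0 Mypn UMIs, a log2 ratio of 6.35 in the first set and an at least 4.60-fold higher level in the second. The largest counts over the limit outside the class were 11 UMIs in a nucleus of 78396 UMIs gated as other blood and 10 in an ungated nucleus of 23761 UMIs. Free RNA was at 1.18 CPM. Hypertrophic and other chondrocyte-like nuclei overlapped in Mypn: with Col10a1, the collagen of hypertrophic cartilage, at 1000 CPM or more it was at 62.7 CPM (42.3 to 89.5) in the second set, and below that at 70.0 CPM (39.2 to 115.5). The genes most like Mypn over the classes were the cartilage matrix genes Col2a1, Acan and Hapln1 (r from 0.960 to 0.970). The Mypn-rich nuclei have a part in setting this class's own profile, since Mypn was among its 10 leading genes. No start site of Mypn gained counts in chondrocyte-like nuclei, with 2 and 0 counts at the start of Mypn-201 in the 2 sets. Over the whole gene chondrocyte-like nuclei had 43.4 ATAC CPM (23.1 to 74.2) against 29.1 (23.5 to 35.6) in reticular-like nuclei, and in the second set 67.2 (54.6 to 81.9) against 29.1 (21.8 to 38.0), where the intervals did not overlap. An intron peak had 16.7 and 29.8 CPM in chondrocyte-like nuclei of the 2 sets. Reticular-like nuclei had 12.9 CPM in the first set and an interval of 8.36 to 19.4 in the second. The peak was open in bone and macrophage or osteoclast-like nuclei too. Periosteal fibroblast nuclei had 32.3 and 29.4 CPM in the 2 sets, and mural-like nuclei 12.7 and 20.7 CPM.

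Ttn was found in the macrophage or osteoclast class, and mostly in 1 nucleus. The class had 114 Ttn UMIs (1024 CPM), of which 91 lay in a nucleus of 3814 UMIs, and the other nuclei had 214 CPM (136 to 321). The 4 other Ttn-positive nuclei of the class held 13, 5, 4 and 1 UMIs. Over the mitochondrial limit 65 UMIs lay in 17 of 150 such nuclei (99.0 CPM, 76.4 to 126), at most 16 in 1 nucleus, and 0 in osteoblast-like, osteocyte-like, mural-like and reticular-like nuclei, where the first set had 2 UMIs in mural-like nuclei and 0 in the other 3 classes. The nucleus with 91 Ttn UMIs passed the gate on Ctsk (2 UMIs), Dcstamp (1) and Atp6v0d2 (1), which are osteoclast genes, and also held 93 UMIs of Col1a1, 57 of Col1a2 and 15 of Bglap. It had 0 UMIs of Ptprc, the pan-leukocyte marker, and of all 7 macrophage markers of the gate, so its place in the class rests on 4 UMIs. Among second-set nuclei Ttn was at 200.1 CPM (145 to 270) in 36 nuclei with more osteoclast than macrophage marker UMIs and at 49.8 CPM (31.2 to 75.5) in the 114 others, a split made after the levels were seen. Ttn start sites had few counts in this class, with 0 and 5 in the 2 sets at the main one and 6 (7.23 CPM, 1.49 to 21.1) and 11 (1.69 CPM) at the start of Ttn-204, where reticular-like nuclei had 8 counts and 6 counts (1.63 CPM). Its ATAC counts over the gene were 7.23 and 5.68 CPM. The gene most like Ttn was Arf1 (r = 0.896).

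The question of whether these genes occur in nuclei without other muscle genes was asked with 25 genes of skeletal muscle fibres, among them fast and slow myosins, troponins, creatine kinase and myoglobin. Their summed level was 24.9 CPM (13.9 to 41.1) in osteoblast-like nuclei, 19.5 CPM (4.02 to 57.0) in osteocyte-like nuclei and 32.1 CPM (18.0 to 53.0) in reticular-like nuclei, with a range over all gated classes from 0 to 65.1 CPM and 10.3 CPM in free RNA. Of the 25 genes, 22 had 0 UMIs in osteoblast-like and 23 in osteocyte-like nuclei. In the second set, where both classes held more nuclei, 16 and 19 had 0 UMIs. Myh1, Myh4, Myh7, Ckm and Tnnc2 had 0 UMIs in all 1411 nuclei, and so did the myogenic factors Myf5, Myod1, Myog and Myf6, while Acta1, skeletal muscle actin, had 2. The fibre UMIs that were present came largely from Pygm (55), the glycogen phosphorylase of muscle, and Tnni2 (24), a troponin. Fibre levels of the second set ran from 0 to 122.7 CPM, with 13.9 CPM in osteoblast-like, 58.3 CPM in osteocyte-like and the highest value in chondrocyte-like nuclei, and Acta1 had 11 UMIs, Tnni2 128, Ckm 3 and the 4 myogenic factors 0. Chondrocyte-like nuclei of that set had Tnni2 at least 6.03-fold higher than reticular-like nuclei.

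Among osteoblast-like and osteocyte-like nuclei with a member UMI, 35 of 49 (71.4%, 56.7 to 83.4) had no UMI of the 25 fibre genes. All 23 nuclei without a member had none either, at depths that were not matched. For the second set the shares were 158 of 192 (82.3%) and 28 of 32 (87.5%). Thinned to 500 UMIs a nucleus would seldom show a fibre gene at these levels, so that share is not read here. The same full-depth share was 93.6% in reticular-like, 88.2% in mural-like and 42.9% in chondrocyte-like nuclei, which were the deepest. In chondrocyte-like nuclei 24 of the 25 fibre genes had 0 UMIs, so their 12 fibre UMIs came from 1 gene. In that class of the second set 14 of the 25 had 0 UMIs, and the others held 85 UMIs. With a wider list of 104 muscle genes that had at most 5 CPM in blood nuclei, 8 of 49 bone nuclei (16.3%) had none. Of 105 nuclei with at least 5 UMIs of the members, 73 had no fibre gene UMI and none had more than 5, and no nucleus held as many fibre as member UMIs. Together they held 45 fibre UMIs, where the free RNA level would give 11.9. The second set had 247 such nuclei, of which 172 had no fibre UMI and 2 held as many fibre as member UMIs, with 159 fibre UMIs in all against 30.2 at the free RNA level and at most 13 in 1 nucleus. Among the 24 nuclei with at least 5 Fhod3 UMIs, 12 had no fibre UMI and none more than 2, whereas 3 nuclei with that much Ttn held 2 fibre UMIs between them.

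**Figure D4:**
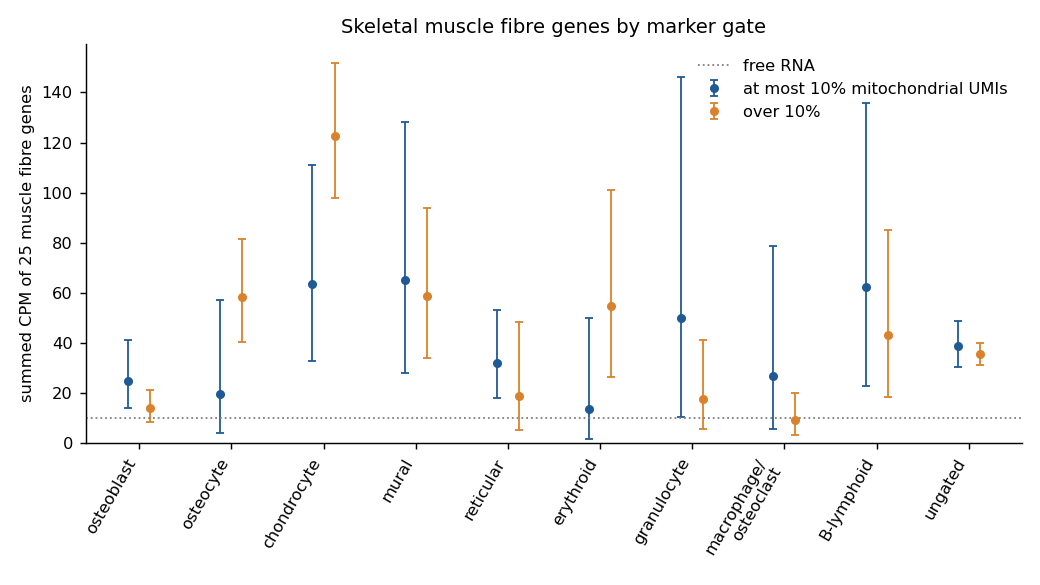
Summed level of 25 skeletal muscle fibre genes (CPM, linear axis from 0) in the gated classes and in ungated nuclei, at most 10% (blue) and over 10% (orange) mitochondrial UMIs, with exact Poisson 95% intervals and the level of free RNA as a dotted line. Osteoblast-like nuclei, which carry Mlip and Fhod3, are at 24.9 CPM, with an interval that overlaps those of the other blue classes, and orange chondrocyte-like nuclei stand highest at 122.7 CPM.

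Other muscle genes were described by list. Ratios here are of osteoblast-like plus osteocyte-like over reticular-like nuclei, for genes with at least 20 UMIs, and higher or lower means at least 2-fold. Of all 6170 such genes 7.39% were higher and 41.8% lower, and their median was -0.82, so a lower call was common for any gene. Mlip (4.22), Fhod3 (3.25), Myom1 (2.41) and Sgcd (-3.77) are the members among them. Of 24 thick and thin filament genes, 2 had enough UMIs and 0 were higher, with Tpm1 at -1.62 and Tpm3 at -0.95, tropomyosins that many cells use. Of 42 Z-disc, M-band and titin-linked genes 9 had enough, 2 were higher and 5 lower. Cryab, a small heat shock protein of the Z-disc, was at least 5.76-fold higher, with 28 UMIs in bone and 0 in reticular-like nuclei, and Nebl, a Z-disc nebulin relative, stood at 1.10, while Speg (-3.21), Palld (-3.06) and Fhl2 (-2.76) were lower. Both excitation and calcium genes that could be compared were lower, Cacna1c (-2.51) and Atp2a2 (-1.52), the calcium pump of the reticulum. No gene of 13 for muscle metabolism or 11 for cardiac muscle had enough UMIs, and 9 of the cardiac genes had none. Of 14 smooth muscle genes 2 had enough, with Mylk at -2.37 and Smtn at 0.81, whereas in mural-like over reticular-like nuclei 4 of 5 were higher, with a median of 5.52: Acta2 (6.82), Tagln (5.87), Myh11 (5.52) and Smtn (1.37).

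The median of the dystrophin partners was near that of all genes. Of 23 genes of the dystrophin-glycoprotein complex 11 had enough UMIs, 2 were higher and 5 lower in bone nuclei, with a median of -0.70. Dtna, alpha-dystrobrevin, was at 146 CPM in osteoblast-like, 221 CPM in osteocyte-like and 12.9 CPM in reticular-like nuclei (log2 ratio 3.54), and Plec, plectin, a cytoskeletal linker, stood at 2.08. Sntb1, beta-1-syntrophin, went with Sgcd, at 4.98 CPM in osteoblast-like and 208 CPM in reticular-like nuclei (-5.50), and Dtnb, beta-dystrobrevin, stood at -2.53. Utrn, the widely expressed relative of dystrophin, was in both, at 304 CPM in osteoblast-like and 276 CPM in reticular-like nuclei, and Dag1, dystroglycan, at 53.1 and 96.4 CPM. Utrn, Dag1, Plec, Nebl and Hdac9 were chosen after their values were seen. Of 13 dystroglycan glycosylation genes 6 had enough, 1 higher (Gmppb, 1.18) and 3 lower, B4gat1 (-1.49) among them. Of 26 muscle transcription factors 12 had enough, 2 higher and 6 lower. Mef2c, a MEF2 factor of muscle that osteocytes also use, was at 668 CPM in osteoblast-like, 1664 CPM in osteocyte-like and 79.3 CPM in reticular-like nuclei (3.44), and Hdac9, a deacetylase that binds MEF2 factors, stood at 1.23, while Eya1 (-4.99) and Tead1 (-2.88) were lower. Of 11 nuclear envelope genes, chosen because Mlip binds lamin, 8 had enough, 0 were higher and 5 lower, led by Syne2 (-3.72), Syne1 (-2.23), Tmem43 (-2.19) and Tor1aip1 (-1.33).

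The members are long genes, which matters for RNA of nuclei because unspliced RNA adds UMIs along introns. On GRCm38, Ttn (ENSMUSG00000051747) spans 278.6 kb of chromosome 2 (76703980 to 76982547, minus strand), Mypn (ENSMUSG00000020067) 88.2 kb of chromosome 10 (63115795 to 63203952, minus), Myom1 (ENSMUSG00000024049) 124 kb of chromosome 17 (71002633 to 71126856, plus), Mlip (ENSMUSG00000032355) 251 kb of chromosome 9 (77102081 to 77352969, minus), Dmd (ENSMUSG00000045103) 2257 kb of chromosome X (82948870 to 85206141, plus), Sgcd (ENSMUSG00000020354) 1093 kb of chromosome 11 (46896253 to 47988969, minus) and Fhod3 (ENSMUSG00000034295) 425 kb. The 5047 genes with at least 100 UMIs had a median length of 44.1 kb, and from 71.2% of them (Mypn) to 99.7% (Sgcd) were shorter than the member, with Dmd longer still. The median of the 25 fibre genes was 18.1 kb. The part of gene length in which muscle genes were seen was not tested. The other genes that overlap the members had at most 9 UMIs in any class, apart from Myl12a, which overlaps the start of Myom1 and stood at 29.9 to 125 CPM where it was found.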

How the data were processed

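Per the file headers and labels, the authors ran Cell Ranger ARC 2.0.0 on mm10 and deposited raw counts per barcode: UMI counts for genes and transposase cut site counts per peak. Build and models were checked against GENCODE vM21: 99.8% of gene identifiers matched and 96.3% of gene starts lay within 1 kb.

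Barcodes were kept if they held 500 or more UMIs and 1000 or more ATAC counts, with mitochondrial UMIs at 10% or less. Scrublet, in scanpy 1.11.5, scored doublets, and since its own call marked 0.350% of barcodes, the top 0.8% per 1000 barcodes were removed instead. A nucleus was gated when its share of a class's marker UMIs was at least 1.5 times background (the larger of the mean and the free RNA share), with at least 3 markers and 1.5 times the next class. These values were set after the data were seen, and of the 51 osteoblast-like nuclei 18 scored under 2. Counts were summed per class. Poisson intervals are exact, for ATAC on counts divided by 2 since only 17.1% of entries were odd, and shares of nuclei have Clopper-Pearson intervals. Ratios have 0.5 counts added to both sides and need 20 UMIs or 50 ATAC counts, and a gene at 0 is bounded with 3 counts. With 1 library no test was run. The gate and ratios were tested on simulated nuclei.

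The members, markers and gene lists were chosen with earlier results of these data known. Beside the members, the text names up to 4 genes per list with the largest absolute log2 ratio of bone over reticular-like nuclei, the partners of dystrophin and the muscle factors given as chosen after their values were seen, the 3 genes most correlated with each member, and peaks at start sites or with the largest ratios. A few genes that this rule names are not reported here. Versions were Python 3.11.15, numpy 2.4.6, scipy 1.17.1, pandas 2.3.3 and bedtools 2.31.1.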

Additional observations from a re-analysis of the deposited data

How the results depend on the processing

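Over 21 settings, 193 log2 ratios of members with a call to compare were recomputed: 174 kept their direction and side of 2-fold, 5 fell under it, 9 passed it and 5 changed sign. The count of 2 members higher in osteoblast-like than in reticular-like nuclei stayed at 2 or became 3 (with a mitochondrial limit of 20% or none, Leiden clusters, or no minimum of UMIs), with Mlip from 3.09 to 6.36 and Fhod3 from 2.96 to 3.69. The count of 1 for osteocyte-like over reticular-like nuclei became 3 with a mitochondrial limit of 20%, with none, and in the nuclei over the limit (the last chosen after seeing the data), and 4 without a minimum of UMIs. The count of 1 for osteocyte-like over osteoblast-like nuclei became 0 without the nucleus richest in the member and 4 without a minimum. For mural-like over reticular-like nuclei the count of 3 became 6 without a minimum. For accessibility the count of 2 became 4 when Col1a1 and Col1a2 were left out of the markers. The share of 71.4% became 100% at 500 UMIs per nucleus, where few fibre UMIs are left, and 16.3% with the 104 muscle genes. Sgcd in osteocyte-like over osteoblast-like nuclei turned from -4.14 to 0.91 (20% limit), 0.39 (no limit), 2.63 (Leiden clusters in place of gates) and 0.74 (nuclei over the limit), so its direction rests on the choice of nuclei. Fhod3 in mural-like over reticular-like nuclei turned from 1.61 to -2.36 with Leiden clusters, where Myom1 in osteocyte-like over osteoblast-like nuclei fell from 2.36 to 0.33. Without a minimum more members enter these counts, and thinning leaves fewer UMIs. The cause of the changes was not tested.

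Depth limits the rare classes most: 1 UMI in the 9 chondrocyte-like nuclei is 5.30 CPM, and 0 UMIs in osteocyte-like nuclei allows 19.5 CPM. Mitochondrial UMIs of the second set dilute its CPM. UMIs in bone nuclei at or under the level of free RNA (Dmd, Sgcd) cannot be told apart from it. Most nuclei were left ungated, so shares of nuclei describe the gate rather than the marrow. RNA and ATAC were paired by nucleus, but no analysis paired over replicates was possible. The 2 samples are the RNA and ATAC libraries of the same nuclei, and no groups of replicates exist.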
